A study of Homo sapiens with 3 samples.

Results

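The genes described here are the HOX genes of the 4 human clusters, chosen as every gene whose symbol in the platform annotation is HOXA, HOXB, HOXC or HOXD followed by a number alone. Of the 39 such genes in the RefSeq gene table of GRCh38.p14, 27 had a named probe set, out of 14884 named genes on the array. They were 1 HOXA gene (HOXA2), 10 HOXB genes (HOXB1 to HOXB9 and HOXB13), 7 HOXC genes (HOXC4 and HOXC8 to HOXC13) and 9 HOXD genes (HOXD1, HOXD3, HOXD4 and HOXD8 to HOXD13). The other 12 were not analysed here. The choice used names only and no measured value, apart from HOXD4, whose probe set with the highest mean was taken from the pair that carried its name. Earlier results of these data were known when the choice was made.

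The study used BE(2)-C, an established line of human neuroblastoma cells in which MYCN is amplified, and the Affymetrix HuGene-2_0-st array, on which a gene is read by probes spread along its transcript. All 3 groups were the same line cultured with fetal calf serum and transfected for 40 hours. The control group received a control siRNA, and the others received an siRNA against WDR5, named WDR5 siRNA-1 and WDR5 siRNA-2, with 1 array for each group. A single line stands for the disease here, no value has a replicate error, and no test of the conditions could be made, so each ratio below compares a pair of arrays. In bulk RNA, fewer expressing cells and less RNA per cell cannot be told apart.

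HOX proteins are homeodomain transcription factors that give cells their position along the head-to-tail axis. The genes lie in clusters in which the low-numbered, anterior genes are at the 3′ end and the high-numbered, posterior genes at the 5′ end, and genes of the same number in different clusters are paralogs. Methyltransferases of the MLL family keep HOX genes active by methylating histone H3 at lysine 4, while Polycomb complexes keep them silent. WDR5 is a core subunit of the MLL complexes, and HOX genes are among its best-known targets. In neural crest derivatives, the tissue from which neuroblastoma arises, HOX genes record axial level, and several of them respond to retinoic acid.

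Sequences near gene starts are shown first because the study sets WDR5 beside N-Myc, whose best-known binding motif is the E-box CACGTG. Of the 27 HOX genes, 11 matched a RefSeq promoter window of 300 bases (250 before and 50 after a start; GRCh38.p14). CACGTG, which reads the same on both strands, was present in 5 of these 11 windows, and all 5 belonged to HOXD genes (5 of 8 HOXD windows and 0 of the 3 windows of HOXA2, HOXB1 and HOXC4). Among all 35116 promoter windows it was present in 7.26%, and in 10.5% of the 12556 windows with at least 23 CpG dinucleotides, the median number in the HOX windows. Each of the 5 matches is printed 5′ to 3′ with 20 bases on either side and the motif in capitals; all lie on the plus strand of chromosome 2.
HOXD13 (chr2:176092570-176092615): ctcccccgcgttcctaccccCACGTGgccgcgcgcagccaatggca
HOXD11 (chr2:176107170-176107215): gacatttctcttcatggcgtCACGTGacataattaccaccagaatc
HOXD10 (chr2:176116652-176116697): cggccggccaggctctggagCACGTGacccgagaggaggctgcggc
HOXD3 (chr2:176157240-176157285): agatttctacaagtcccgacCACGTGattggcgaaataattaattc
HOXD1 (chr2:176188595-176188640): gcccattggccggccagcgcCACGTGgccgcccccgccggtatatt
The first base of the motif stood 131 bases before the RefSeq start in HOXD13, 90 in HOXD11, 106 in HOXD10, 47 in HOXD3 and 53 in HOXD1. A match of letters is a description of the window and not a measured binding site. The CACGTG comparison was added once the data were at hand, and neighbouring windows of 1 cluster are not independent draws from all windows. TATAAA, also counted, was present on either strand in 1 of the 11 windows (9.09%) and in 11.5% of all windows.

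The window of HOXC4 is also shown, because HOXC4 had the highest control signal of the 27 genes. It held 0 copies of CACGTG and 15 CpG dinucleotides, which are capitalised because MLL contains a domain that binds unmethylated CpG. Its base composition was 51.67% G and C, against a median of 58.67% over all windows.
HOXC4 (chr12:54016638-54016937, plus strand): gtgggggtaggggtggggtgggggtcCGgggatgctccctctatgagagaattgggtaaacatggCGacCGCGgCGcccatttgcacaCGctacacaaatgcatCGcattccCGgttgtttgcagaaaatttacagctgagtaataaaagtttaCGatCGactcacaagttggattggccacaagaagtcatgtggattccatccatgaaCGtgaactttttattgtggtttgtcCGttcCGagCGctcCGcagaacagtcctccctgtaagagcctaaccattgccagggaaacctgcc
The number of CpG dinucleotides ran from 4 in the window of HOXD4 to 36 in that of HOXD1, with a median of 23 over the 11 HOX windows and 14 over all windows.

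The targeted transcript was lower on both WDR5 siRNA arrays. WDR5 had a log2 signal of 9.46 on the control array and of 7.90 on both others. It was thus 2.95-fold below control on each. The siRNA arrays carried exactly the same WDR5 value, as they did for 41.4% of all named genes. Among the genes that passed the signal filter described below, as WDR5 did, the share was 21.5%. The equal folds therefore do not show that the siRNAs agreed in size. Of the adrenergic neuroblastoma markers, 10 of 12 were measured, with control signals from 7.29 (TH) to 12.54 (STMN2). The 3 measured of 7 Schwann and stromal markers lay between 4.80 (DCN) and 6.96 (SOX10), with identical values on all 3 arrays. The 4 measured of 6 leukocyte and endothelial markers lay between 4.29 (PECAM1) and 7.75 (CD68). Each probe set responds to its own probes, so levels of different genes are given as array signals, not as amounts of RNA, and no detection call was made. SOX10, which marks Schwann cells, had a signal close to those of several HOXD genes below, and a log2 signal near 7 therefore does not by itself show that a transcript was present.

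The first comparison was of the control signals by cluster. HOXC genes had the highest control signals, with a median log2 signal of 7.29 over 7 genes (5.79 to 8.81). HOXD genes followed with a median of 6.96 over 9 genes (6.05 to 7.39). HOXB genes had the lowest of the 3 well represented clusters, with a median of 5.57 over 10 genes (4.89 to 6.14), and HOXA2, the only HOXA gene here, stood at 5.11. The median over all 14884 named genes was 6.80. The order HOXC, HOXD, HOXB of the cluster medians was the same on the WDR5 siRNA-1 array (7.25, 6.92 and 5.45) and on the WDR5 siRNA-2 array (7.29, 6.99 and 5.57).

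**Figure D1:**
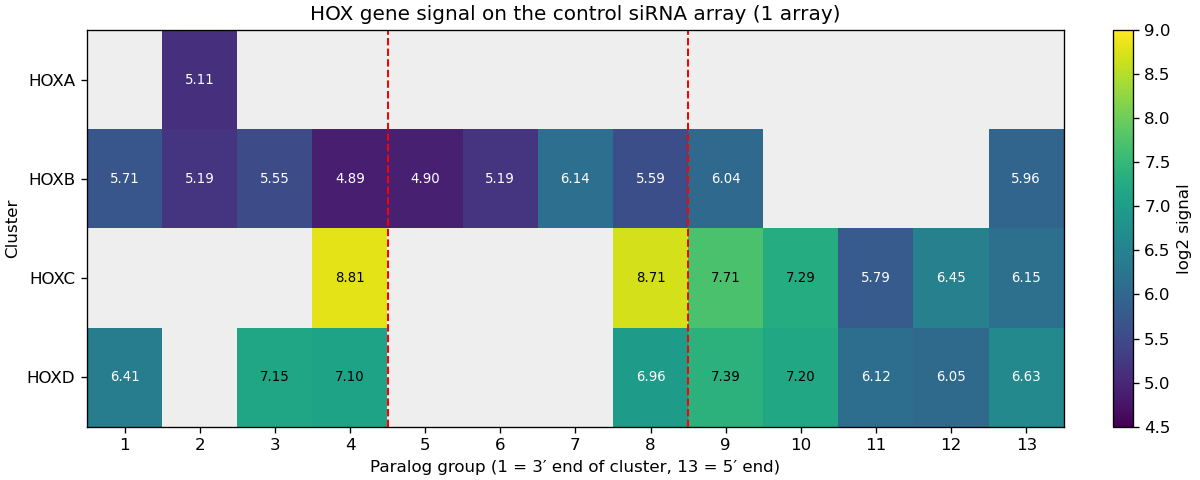
Log2 signal of each HOX gene on the control siRNA array, by cluster (rows) and paralog group (columns), with 1 array and no error; grey cells have no value here, and dashed lines separate the anterior, central and posterior genes. The highest signals are those of HOXC4 (8.81) and HOXC8 (8.71), and every HOXB gene is at or below 6.14.

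The HOXC signals were higher toward the 3′ end of the measured genes than at the 5′ end. HOXC4 had a control log2 signal of 8.81, HOXC8 of 8.71, HOXC9 of 7.71 and HOXC10 of 7.29, and these were the 4 HOXC genes above the median of the named genes. HOXC11 (5.79), HOXC12 (6.45) and HOXC13 (6.15), whose products act at the tail end of the body axis and, for HOXC13, in hair, were below it. The step from HOXC10 to HOXC11 separated the genes above the median of named genes from those below it.

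The HOXD signals formed a plateau in the middle of the cluster. HOXD3 (7.15), HOXD4 (7.10), HOXD8 (6.96), HOXD9 (7.39) and HOXD10 (7.197) lay within 0.43 of each other. The place of HOXD4 depends on the probe set used, since its second one stood at 6.60, and HOXD3 and HOXD4 overlap each other. HOXD1 (6.41), at the 3′ end, and HOXD11 (6.12), HOXD12 (6.05) and HOXD13 (6.63), the limb and genital genes at the 5′ end, were lower. In both HOXC and HOXD, paralog group 10 was thus the most posterior group above the median of the named genes.

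The HOXB signals were low along the whole cluster, including the genes with a role in hindbrain patterning, HOXB1 (5.71) and HOXB2 (5.19). HOXB4 had the lowest control signal of the 27 genes (4.89), followed by HOXB5 (4.90) and then HOXA2 (5.11). The 10 HOXB genes stood between percentiles 13.04 and 37.66 of the named genes. HOXB7 (6.14), HOXB9 (6.04) and HOXB13 (5.96) had the highest signals in the cluster.

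Paralogs were as far apart as 3.92 on the log2 scale. In group 4 the control signals were 4.89 for HOXB4, 7.10 for HOXD4 and 8.81 for HOXC4. In group 8 they were 5.59 for HOXB8, 6.96 for HOXD8 and 8.71 for HOXC8, a range of 3.12. Groups 3 and 9 had ranges of 1.61 and 1.67, again with the HOXB gene lowest. Groups 10 to 13 had ranges of at most 0.66, but groups 10 to 12 held no HOXB gene here and compare HOXC with HOXD alone. Group 2, of HOXA2 and HOXB2, had a range of 0.082.

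The medians of the position classes differed less than those of the clusters. The median control log2 signal was 5.71 for the 9 anterior genes (paralog groups 1 to 4), 5.87 for the 6 central genes (5 to 8) and 6.30 for the 12 posterior genes (9 to 13). These medians mix clusters, since 4 of the 6 central genes and 4 of the 9 anterior genes are HOXB genes. Within HOXB the posterior genes had a higher median (6.003) than the anterior (5.37) and central (5.39) genes. Within HOXC the order was opposite, with a median of 6.45 for the 5 posterior genes against 8.81 for HOXC4 and 8.71 for HOXC8. Within HOXD the medians were 7.10, 6.96 and 6.63 for the anterior, central and posterior genes.

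**Figure D2:**
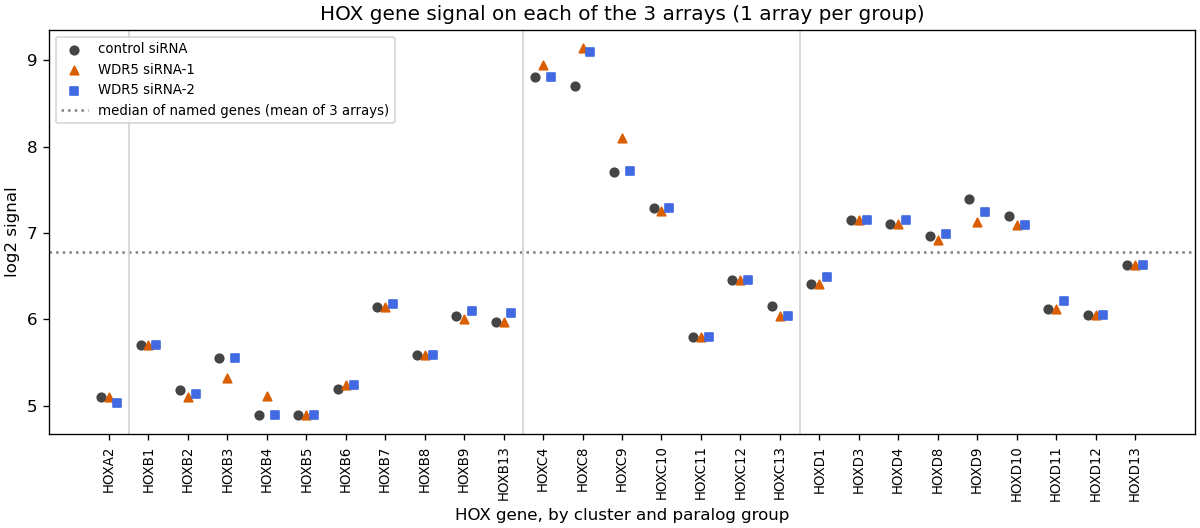
Log2 signal of the 27 HOX genes on the control siRNA (circles), WDR5 siRNA-1 (triangles) and WDR5 siRNA-2 (squares) arrays, 1 array per group; the dotted line is the median of the named genes by mean signal (6.78). For most genes the symbols lie side by side, and the widest separations are those of HOXC8 and HOXC9.

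The second comparison was of each WDR5 siRNA array with the control array. No HOX gene was 1.5-fold from control with either siRNA. A gene was kept for counting when its mean log2 signal over the 3 arrays was at or above the median of all named genes, 6.78, which left 9 HOX genes (HOXC4, HOXC8, HOXC9, HOXC10, HOXD3, HOXD4, HOXD8, HOXD9 and HOXD10) and put 18 below. The gene just inside was HOXD8, with a mean of 6.96, and the one just outside was HOXD13, with 6.63. With WDR5 siRNA-1, 0 of the 9 were at least 1.5-fold higher and 0 lower, where 2.24% and 4.60% of all 7442 genes kept were. With WDR5 siRNA-2, 0 of the 9 were higher and 0 lower, where 2.19% and 4.00% of the genes kept were. At these rates a count of 0 among 9 genes is near the background and is not particular to HOX genes.

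Over all 27 genes, which included those with low signals, the count was also 0 in each direction and with either siRNA. Over all named genes, 1.55% were that much higher and 2.77% lower with siRNA-1, and 1.34% higher and 2.37% lower with siRNA-2. The median log2 ratio of the 9 kept HOX genes was 0.00 with each siRNA, as was that of the 7442 genes kept. The median absolute log2 ratio of the 9 was 0.099 with siRNA-1 and 0.027 with siRNA-2, against 0.11 and 0.091 for all genes kept. The ratios share the control array and are therefore not independent of each other.

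**Figure D3:**
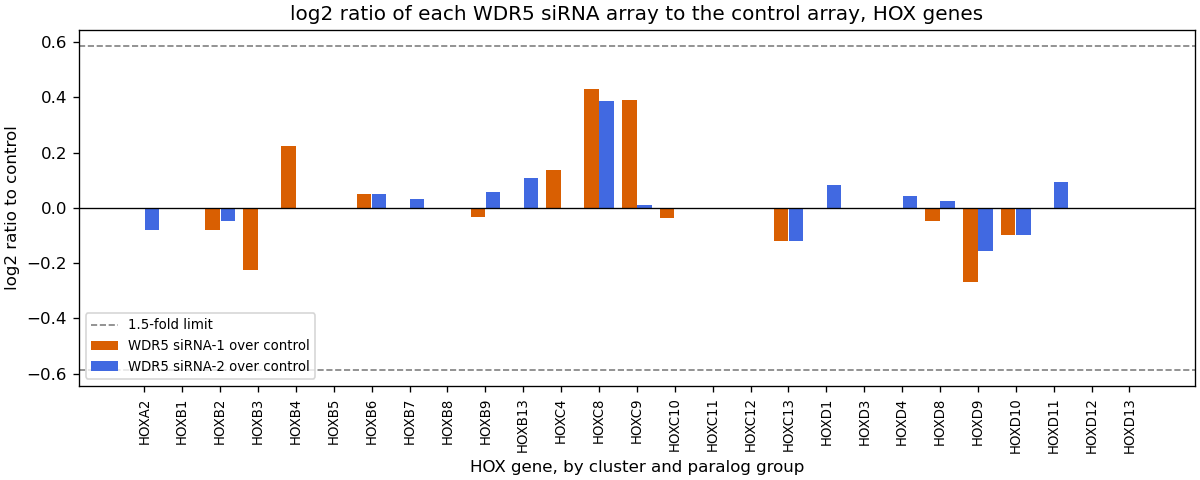
Log2 ratio of the WDR5 siRNA-1 (orange) and WDR5 siRNA-2 (blue) arrays to the control array for each HOX gene, with dashed lines at 1.5-fold; 1 array per group, so there are no error bars, and a missing bar is a ratio of 0. All bars stay inside the dashed lines, and the highest are those of HOXC8 (0.43 and 0.39).

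The HOX gene with the highest ratio on each array was HOXC8, which acts in the specification of spinal motor neurons. Its log2 signal was 8.71 with the control siRNA and 9.14 and 9.09 with WDR5 siRNA-1 and WDR5 siRNA-2. It was thus lowest on the control array, by 1.35-fold against the siRNA-1 array and 1.31-fold against the siRNA-2 array. Among the genes kept, 12.5% had an absolute log2 ratio at least as large on the first of these arrays and 13.4% on the other. HOXC8 stood at percentile 77.04 of the named genes on the control array and at 82.14 and 81.79 on the others.

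HOXC9, the neighbouring gene, which is known to drive neuronal differentiation when raised in neuroblastoma cells, stood apart on a single array. Its log2 signals on the control, siRNA-1 and siRNA-2 arrays were 7.71, 8.10 and 7.72. HOXC9 was 1.31-fold higher with siRNA-1 than control (log2 ratio 0.39) and 1.01-fold higher with siRNA-2 (0.011). Of the genes kept, 14.7% had an absolute ratio at least as large with siRNA-1 and 71.0% with siRNA-2. Set against each other, the siRNA arrays differed by 0.38 in HOXC9, the highest such difference among the 27 genes, and by 0.046 in HOXC8. Between the siRNA arrays 0 of the 9 kept HOX genes were at least 1.5-fold higher or lower with siRNA-1, where 4.21% of the genes kept were higher and 4.65% lower.

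HOXC4, in the same array order, had log2 signals of 8.81, 8.95 and 8.81, so that it was 1.10-fold higher with siRNA-1 and identical to control with siRNA-2. HOXC10, a gene of lumbar identity, had signals of 7.29, 7.25 and 7.29. HOXC13 had signals of 6.15, 6.03 and 6.03, a log2 ratio of -0.12 with each siRNA. HOXC11 and HOXC12 had the same value on all 3 arrays.

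As deposited, and on the probe sets used, the values of the HOXD genes did not exceed control with siRNA-1. Of the 9, 3 had ratios below 0 and 6 had a ratio of exactly 0, while with siRNA-2 4 were above 0, 2 below and 3 at 0. Of all named genes, 27.1% were above 0, 29.4% below and 43.5% at 0 with siRNA-1. With siRNA-2 these shares were 25.3%, 27.8% and 46.9%. With quantile normalization or a common array median the 6 tied genes lay above control by at most 0.051 with siRNA-1, and the same number, 3, stayed below it. The median log2 ratio of all genes kept was then 0.037 and 0.044, in that order of settings. HOXD9 had log2 signals of 7.39, 7.12 and 7.24, which put siRNA-1 1.21-fold below control (log2 ratio -0.27) and siRNA-2 1.11-fold below it (-0.15). These were the lowest ratios among the 27 genes, and 25.1% and 37.8% of the genes kept had absolute ratios at least as large. HOXD10, whose E-box window is printed above, had signals of 7.197, 7.098 and 7.098, or a ratio of -0.099 with each siRNA.

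HOXD8 was mixed, with ratios of -0.046 and 0.027. HOXD4 had ratios of 0 and 0.043 on the probe set used and of 0.054 and 0.14 on its second one, whose control signal was 6.60 against 7.10. HOXD3 and HOXD13, each with an E-box in its window, and HOXD12, without one, had identical values on all 3 arrays. HOXD1 (6.41, 6.41 and 6.50) and HOXD11 (6.12, 6.12 and 6.21), which also have an E-box, differed from control on the siRNA-2 array only, by 0.084 and 0.092.

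The HOXB genes and HOXA2 were all below the signal filter, and their ratios lay between -0.23 and 0.22 with siRNA-1 and between -0.079 and 0.11 with siRNA-2. HOXB3 (5.55, 5.32 and 5.55) and HOXB4 (4.89, 5.11 and 4.89), which border each other, stood apart on the siRNA-1 array in opposite directions, by -0.23 and 0.22. With siRNA-2 both had the control value. HOXB13 was 0.11 higher with siRNA-2 and equal to control with siRNA-1. HOXB1, HOXB5 and HOXB8 had identical values on all 3 arrays, and HOXA2 had signals of 5.11, 5.11 and 5.03.

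**Figure D4:**
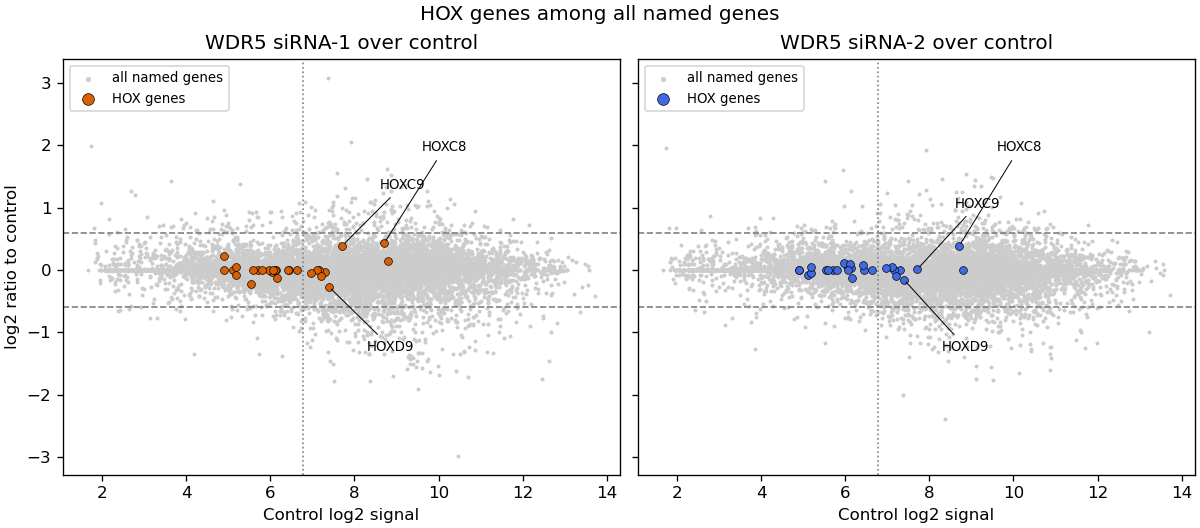
Log2 ratio to control against control log2 signal for WDR5 siRNA-1 (left) and WDR5 siRNA-2 (right), with all 14884 named genes in grey and the 27 HOX genes in colour; dashed lines mark 1.5-fold and the dotted line the signal of 6.78 used as a filter on the mean of the arrays. The HOX genes lie in the low and middle part of the signal range and inside the dashed lines on both plots.

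Exact ties made up a large part of these ratios. On all 3 arrays the same value stood for 8 of the 27 HOX genes (29.6%), against 34.5% of all named genes. Among the 9 kept HOX genes 1 was tied in this way (HOXD3), against 14.88% of the genes kept. Of the 27, 14 (51.9%) had a ratio of exactly 0 with siRNA-1 and 11 (40.7%) with siRNA-2, against 43.5% and 46.9% of all named genes. A tied ratio gives no size of difference and cannot be read as a measured lack of response. The siRNA arrays held the same value for 11 of the 27 HOX genes (40.7%), HOXC13 and HOXD10 among them, against 41.4% of all named genes. Among the kept genes the shares were 22.2% of the HOX genes and 21.5% of all. Equal ratios with each siRNA, here and in the lists below, therefore cannot be read as agreement of the siRNAs. By their RefSeq spans, 5 of the 27 genes overlap another HOX gene: HOXC4 overlaps HOXC5 and HOXC6, HOXB3 overlaps HOXB4, and HOXD3 overlaps HOXD4. Signals of these genes may include RNA of the overlapping gene.

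The TALE homeodomain proteins, which bind DNA together with HOX proteins, were examined as cofactors, and 7 of 9 listed genes were measured. None was 1.5-fold from control. Among all named genes 1.55% were that much higher and 2.77% lower with siRNA-1, and 1.34% higher and 2.37% lower with siRNA-2. A count of 0 among 7 genes is therefore near the background. PBX3 had log2 signals of 9.496, 9.73 and 9.77 (ratios of 0.24 and 0.28) and MEIS2 of 9.51, 9.22 and 9.21 (-0.28 and -0.29), in control, siRNA-1 and siRNA-2 order. These cofactor genes had the highest control signals of the family and went in opposite directions. PBX2 had ratios of -0.032 and -0.37, MEIS1 of 0.25 and 0, and PKNOX1 of -0.069 and -0.013. PBX4 and MEIS3 were below the filter, with ratios of 0 and 0.0072 and of 0 and 0.

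Of the partners of WDR5 in COMPASS and MLL complexes, 13 of 23 listed genes were measured and all 13 were kept. With siRNA-1, 1 of the 13 was at least 1.5-fold lower and 0 were higher, and with siRNA-2 0 were either. Among all genes kept 4.60% were that much lower and 2.24% higher with siRNA-1, so a single gene of 13 is near the background. The list medians were -0.016 and -0.17. The gene past the limit was MEN1 (menin, which tethers MLL to HOX genes), with signals of 8.57, 7.94 and 8.36 and ratios of -0.63 and -0.21. HCFC1, a host cell factor in SET1 and MLL complexes, had a ratio of -0.31 with each siRNA, DPY30 of 0.083 and -0.31, and PAXIP1 of -0.19 and -0.29.

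Of 28 listed Polycomb genes, whose products oppose MLL at HOX clusters, 22 were measured and 21 kept. With siRNA-1, 0 of 21 were at least 1.5-fold higher and 1 lower, and with siRNA-2 1 was higher and 1 lower, with list medians of 0.00 and -0.083. These counts are near the shares of all genes kept, which were 2.24% higher and 4.60% lower with siRNA-1 and 2.19% and 4.00% with siRNA-2. SUZ12, a core subunit of the complex that methylates histone H3 at lysine 27, had signals of 11.46, 10.57 and 11.38, a ratio of -0.89 on the siRNA-1 array and -0.083 on the siRNA-2 array. PCGF3 and PCGF5, alternative subunits of the other Polycomb complex, had ratios of -0.10 and -0.77 and of -0.079 and 0.69. RBBP4, a histone-binding subunit, had ratios of 0.087 and -0.56. Each of the 3 genes past the limit was past it on a single array.

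Of 26 listed upstream regulators of HOX genes, 8 were measured and 3 kept, and 0 were 1.5-fold from control. Among all named genes at most 2.77% were past that limit in any direction with either siRNA, so this count is near the background. CTCF, which forms boundaries within the clusters, had ratios of 0 and 0.0074, GDF11, a signal for posterior identity, of 0.051 with each, and CDX1, a homeodomain activator of HOX genes, of 0 and 0.042. Of 24 listed genes that flank the clusters or, like PRAC1, lie within HOXB, 16 were measured and 12 kept. Of the 12, 1 was at least 1.5-fold lower with each siRNA and 0 were higher, where 4.60% and 4.00% of all genes kept were lower, so these counts are near the background. On chromosome 17, beyond the anterior end of HOXB, CBX1 had signals of 9.15, 8.46 and 8.93 (ratios of -0.69 and -0.22) and SNX11 of 8.71, 8.43 and 8.12 (-0.28 and -0.59). The count with siRNA-2, which rests on SNX11, was 0 under quantile normalization. Next to HOXC on chromosome 12, SMUG1 had ratios of 0 and -0.053, CBX5 of -0.36 and -0.054, and CALCOCO1, on the other side, of 0 and -0.091. Near HOXA on chromosome 7, HIBADH had ratios of -0.16 and -0.32. Next to HOXD on chromosome 2, EVX2 had the same value (6.86) on all 3 arrays. Over the 16 measured genes, ratios ran from -0.69 to 0.16 with siRNA-1 and from -0.59 to 0.078 with siRNA-2.

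**Figure D5:**
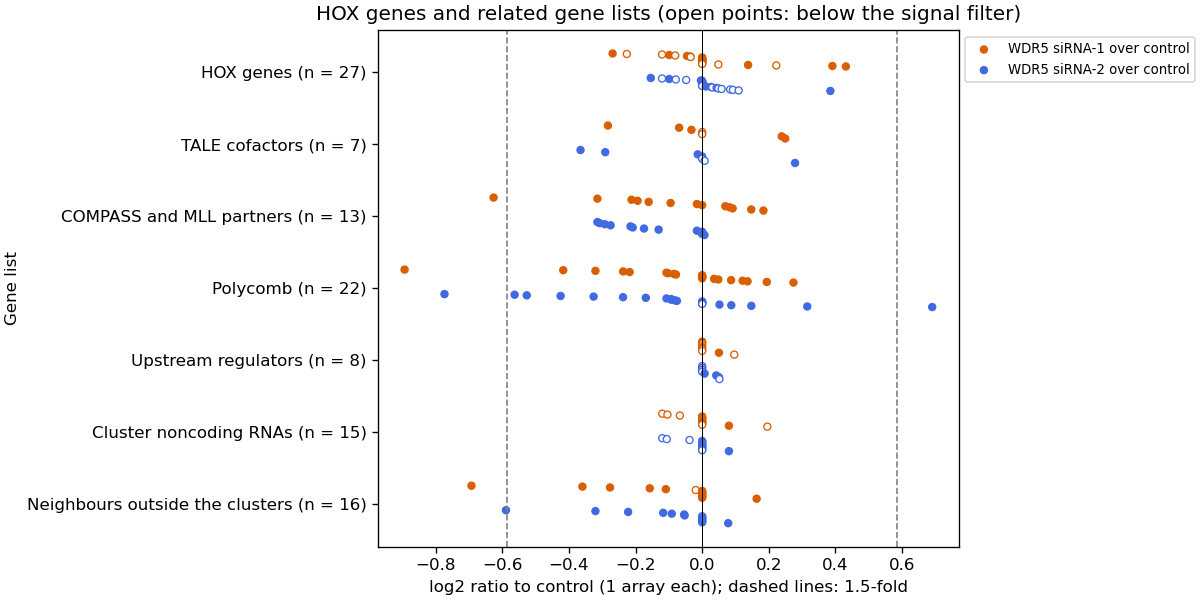
Log2 ratio to control with WDR5 siRNA-1 (orange) and WDR5 siRNA-2 (blue) for the 27 HOX genes and for the measured genes of related lists, 1 point per gene; filled points passed the signal filter and dashed lines mark 1.5-fold. The HOX genes span -0.27 to 0.43, and points beyond the lines belong to the COMPASS, Polycomb and neighbouring gene lists.

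Of the 10 adrenergic markers measured, 1 was at least 1.5-fold lower with siRNA-1 (DBH) and 1 at least 1.5-fold higher with siRNA-2 (CHGA), where 4.60% and 2.19% of all genes kept were. DBH, an enzyme of noradrenaline synthesis, had ratios of -0.81 and 0.51, and CHGA, a secretory granule protein, of -0.47 and 0.73. GATA2 (-0.089 and 0.28), CHGB (-0.14 and 0.23) and PHOX2A (-0.18 and 0.039) had the same signs at smaller sizes. The remaining markers did not: ISL1 had ratios of 0.23 and 0.39, GATA3 of -0.016 and -0.32, and HAND2 of -0.025 and -0.35. TH had the same value on all 3 arrays, and STMN2 had a ratio of -0.0041 with each siRNA. Over the 10 measured markers the ratios ran from -0.81 to 0.23 with siRNA-1 and from -0.35 to 0.73 with siRNA-2. Of the leukocyte and endothelial markers, PECAM1 had signals of 4.29, 4.88 and 5.12, below the filter, and CD68 of 7.75, 8.14 and 7.83. The part of these differences in the HOX values was not tested.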

How the data were processed

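Per the labels' protocols, biotin-labelled cRNA was made from RNeasy-purified total RNA. The deposited table holds 53617 probe sets with 1 column per array, read as log2 values from their range of 1.34 to 14.87; it states no scale, so every fold rests on that reading. The submitters' processing notes name MAS5 without its step. How background, normalization and probe summaries were handled is not given in the sources used here. Array medians were 5.81, 5.79 and 5.79, and no scaling was added.

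The platform annotation named 16098 probe sets with 1 gene each and 37519 with none; all 16098 matched the RefSeq gene table (GRCh38.p14). The probe set with the highest mean was taken for the 779 genes with several, giving 14884 genes, of which 7442 passed the filter. Log2 ratios to control, counts at 1.5-fold and medians were computed with Python 3.11.15, numpy 2.4.6 and pandas 2.3.3, and the counting was tested on simulated data. With 1 array per group no test was made, and the number of arrays limits precision. Members and lists were chosen with earlier results of these data known. The named genes are WDR5, all HOX genes, the TALE genes, up to 4 kept genes per other list by largest ratio, and the cell type markers. SMUG1, CALCOCO1, EVX2, HOTAIR and other list genes named outside this rule were chosen after their values were seen. Whether labelling kept strands apart is not given in the sources used here.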

Additional observations from a re-analysis of the deposited data

How the results depend on the processing

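The counts of HOX genes at 1.5-fold stayed at 0 in each direction and with each siRNA under quantile normalization, a common array median, the mean of probe sets and no filter. A 2-fold limit and a 75th percentile filter also gave 0, which they had to, since none of the 27 genes was past 1.5-fold. With the 75th percentile filter only 2 HOX genes remained, and their median log2 ratio was 0.28 with siRNA-1 and 0.19 with siRNA-2; under the other settings it moved by less than 0.1 from 0. The median control signal of HOXD became 6.85 with the mean of probe sets and 6.78 as a mean over genes, that of HOXB 5.45 on the siRNA-1 array, and the means for anterior, central and posterior genes were 6.21, 6.25 and 6.57. The order HOXC, HOXD, HOXB held in all of these. The count of neighbouring genes at least 1.5-fold lower with siRNA-2 became 0 under quantile normalization. No single HOX ratio moved by more than 0.063, and none of at least 0.1 changed sign under either scaling, but quantile normalization left 1 HOX gene tied on all 3 arrays in place of 8. No paired analysis was possible because each group has 1 array. No measure of signal over background was made, so what it limits was not tested.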

Other observations

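Noncoding RNAs transcribed within the HOX clusters were also on the array, and 15 of 26 listed ones were measured. Of these, 2 passed the signal filter, as did 7442 of the 14884 named genes. Of the 15, 10 had the same value on all 3 arrays, against 34.5% of all named genes. Among the named genes below the filter that share was 54.0%. HAGLR, which is transcribed from the HOXD cluster, had log2 signals of 7.04, 7.12 and 7.12, a ratio of 0.080 with each siRNA. HOXC13-AS stood at 6.83 on all 3 arrays. HOTAIR, the HOXC transcript known for binding Polycomb complexes, had signals of 6.80, 6.73 and 6.69 and lay just below the filter. HOTTIP, the HOXA transcript known for binding WDR5, stood at 5.11 on all 3 arrays, and the microRNA gene MIR10B of the HOXD cluster at 2.60. Over the 15, ratios ran from -0.12 to 0.20 with siRNA-1 and from -0.12 to 0.080 with siRNA-2.

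Many HOX signals were values that other probe sets carried too. The exact control value of 17 of the 27 HOX genes (63.0%) occurred on at least 1 other probe set, against 47.3% of all named genes. Below the signal filter, where 18 of the 27 lay, the shares were closer, at 72.2% of the HOX genes and 69.5% of the named genes. The control value of HOXB5 was found on 221 probe sets, that of HOXB8 on 178 and that of HOXB3 on 113. The control value of HOXD13, 6.63, was found on 29 probe sets, HOXA10-AS among them. Among the 9 kept HOX genes 4 had such a shared value, against 25.1% of the genes kept. They were HOXC8 (5 probe sets), HOXC9 (8), HOXD3 (22) and HOXD4 (8). The ratios of HOXC8 and HOXC9 to control thus rest on control values that recur. Why values recur across probe sets was not tested.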
